A study of Mus musculus with 18 samples.

Results

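The genes described here are 9 neighbouring S100 genes of mouse chromosome 3, namely S100a1, S100a3, S100a4, S100a5, S100a6, S100a10, S100a11, S100a13 and S100a16, found by symbol among the 21859 protein-coding genes of the deposited table. They were selected on the fold changes between SPT16-depleted and control libraries in the same table, which were not used here. S100 proteins are small calcium-binding proteins with a pair of EF-hand motifs, which mostly act as dimers that expose a binding surface for partner proteins when calcium rises. Unlike enzymes, they change the activity or location of their partners, among them annexins, cytoskeletal proteins and p53. Most of the family lies in 1 chromosomal region next to the genes of the epidermal cornified envelope, and many members are known from epithelia, fibroblasts and myeloid cells rather than from embryonic stem (ES) cells.

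Nascent RNA was measured by TT-seq, which captures the RNA that takes up 4-thiouridine within minutes of its addition, in E14 murine ES cells grown with serum, LIF and inhibitors of GSK3 and MEK. All cells carried the plant F-box protein gene osTIR1, which lets auxin (3-IAA) direct a tagged protein to degradation. Untagged cells and 2 clones in which Supt16 carried a mini-AID and V5 tag (SPT16_AID_V5_Clone1 and SPT16_AID_V5_Clone2) were each given 0.1% ethanol (EtOH) or 3-IAA for 24 h before a 5 min pulse, with 3 libraries for each of the 6 groups and 18 in all. For 3-IAA the dose on the labels is 500 nM and for 4-thiouridine 500 mM, whereas the methods state both in µM. The labels number 3 repeats of each group, which the methods treat as technical replicates, with the clones as the biological ones.

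The level used throughout is the mean normalized count, that is, the count of a gene divided by the size factor of each library and averaged by the authors. It is 1 value per gene over SPT16-depleted and control libraries together, so it has no replicate error, and the level in either condition cannot be told apart. A single read in a single library gives a mean that depends only on that library, and such values recurred in many genes at 18 levels, from 0.0216 to 0.115, the same number as there are libraries. Of the 21859 genes, 20157 had a mean above 0, and all means together summed to 5.59e+07. The ES cell markers were read at high levels, with 7585 for Pou5f1 (Oct4) and 23221 for Zfp42 (Rex1), and 8 of 9 markers on the list were at or above the gene median. The exception was Utf1 at 248, which lay above the gene median per kb of gene span, as did the other 8. Markers of other cells were low for 7 fibroblast, 5 keratinocyte and 6 myeloid genes, whose medians were 9.17, 3.88 and 8.64. Of these 18 genes, Cd68 alone, at 805, lay above the gene median of 421, and Itgam was listed at 0.

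The 9 genes differed by several orders of magnitude in nascent transcription. S100a10 had the highest mean at 1446, followed by S100a13 at 962 and S100a11 at 689. These 3 genes were above the median of genes with reads, at percentiles 64.7, 59.1 and 55.0. S100a10 encodes the partner of annexin A2 (also known as p11), S100a11 binds annexin A1, and S100a13 takes part in the release of FGF1 from cells. S100a1, best known from heart muscle, had a mean of 259.8 at percentile 45.3. S100a6 (calcyclin), which binds the protein encoded by Cacybp, had a mean of 148 and S100a3, known from hair cuticle, had 143, at percentiles 40.7 and 40.4. This middle group lay below the gene median but well above the lower quartile of 13.4. S100a16, which is widely expressed in adult tissues, was at 14.5 and percentile 25.5. S100a5 and S100a4 (also known as FSP1, a gene used as a fibroblast marker) were at 0.876 and 0.167, at percentiles 11.7 and 5.29. They were the members below 1, whereas the other 7 genes were above 10.

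**Figure D1:**
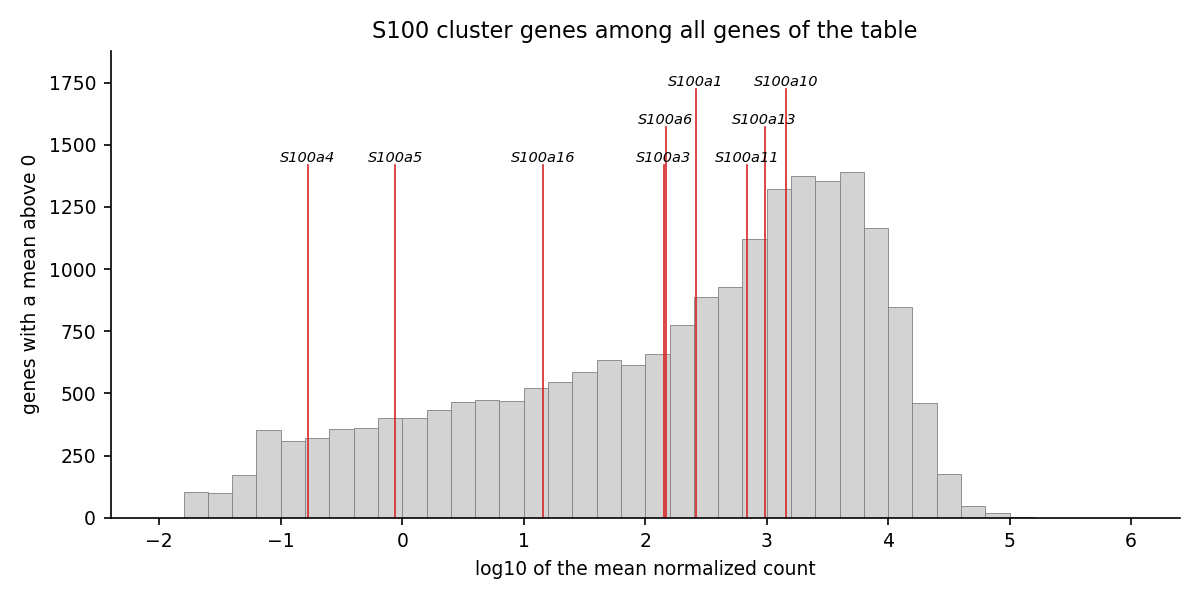
Number of genes (vertical axis) by log10 of the mean normalized count (horizontal axis) for the 20157 genes with a mean above 0, with a red line at each of the 9 S100 genes. S100a10, S100a13 and S100a11 stand right of the gene median of 421, and S100a5 and S100a4 lie in the left tail, below 1.

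The summed level of the cluster was therefore carried by few genes. The 9 means summed to 3663, or 0.00655% of the summed means of the table. S100a10 held 39.5% of this sum, S100a13 held 26.3% and S100a11 held 18.8%, so that these 3 genes made up 84.5%. S100a1 added 7.09%, S100a6 4.05% and S100a3 3.90%, while S100a16, S100a5 and S100a4 were each under 1%. Longer genes collect more reads, so these shares are not a ranking of transcription per base.

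To compare genes per length, it was first asked what the reads were counted on, since intronic RNA is a large part of a nascent library. Of 382 genes of the table that lie wholly inside the span of another one on the same strand, 2 had a mean above 0 (0.524%), namely S100a2 and Ifi211. The share was 1.10% for the 182 of them that share no exon base with the other gene, and 92.5% for 507 genes that lie inside a gene on the opposite strand only. Genes inside no other span had reads in 94.0% of 20928 cases. Counts thus behaved as sums over whole gene spans, introns included, from which reads shared by neighbours on the same strand were left out. Levels per length are given below per kb of gene span for this reason, with the value per kb of merged exons as the alternative. All spans are from Gencode vM21 on GRCm38, whereas the authors counted on vM25 of the same genome.

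Per kb of gene span, S100a10 was again highest at 151, with S100a11 at 119, S100a13 at 94.8 and S100a1 at 77.3. Each step between neighbours in this order was small, 1.27-fold, 1.25-fold and 1.23-fold, and without replicate error the 4 genes cannot be ordered. All 4 were above the gene median of 21.7 per kb of span, at percentiles 80.9, 75.4, 70.5 and 66.3. S100a6 followed at 13.1, S100a3 at 3.39, S100a16 at 2.46, S100a5 at 0.269 and S100a4 at 0.0733. The largest steps were from S100a16 to S100a5 (9.14-fold) and from S100a1 to S100a6 (5.89-fold). Per kb of merged exons S100a11 led at 1349, with S100a13 at 1346 and S100a10 at 1193. S100a1 had 374 and S100a6 had 109 on that scale, and S100a3, S100a16, S100a5 and S100a4 had 25.2, 8.97, 2.03 and 0.286.

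The place of S100a6 and S100a3 turned on the annotated length. S100a6 spans 11300 bp because 1 transcript outside the coding set runs far downstream, while its protein-coding transcripts span 1533 bp. On the latter length S100a6 had 96.8 per kb, beside 94.8 for S100a13 and 77.3 for S100a1. S100a3 spans 42125 bp with all transcripts and 18044 bp with the coding ones, and had 7.92 per kb on the latter. For S100a10, S100a11, S100a13, S100a1, S100a16, S100a5 and S100a4 both lengths were the same.

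**Figure D2:**
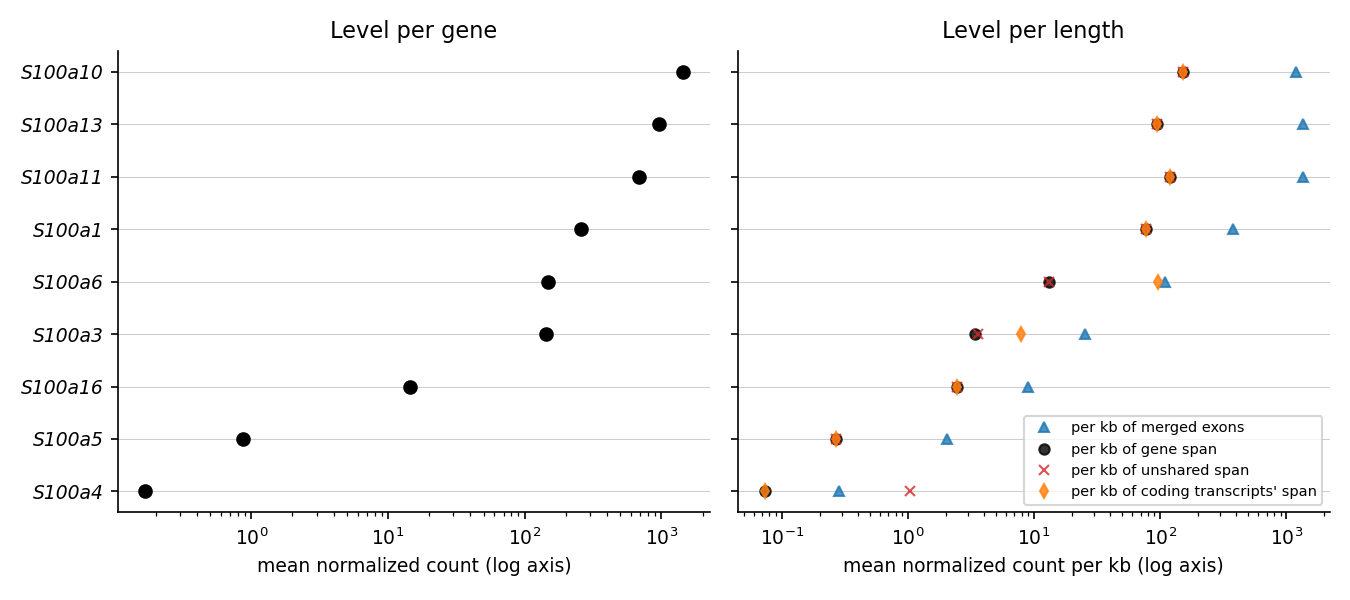
Mean normalized count of each of the 9 S100 genes (left) and the same value per kb (right), both on log axes, with 1 symbol for each length it was divided by. S100a6 moves from 13.1 to 96.8 per kb when the span of its coding transcripts is used, and S100a4 from 0.0733 to 1.04 per kb when only its unshared bases count.

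The genes lie in 2 blocks of chromosome 3. The first holds 7 of the 9 genes within 113 kb, in the order S100a1, S100a13, S100a16, S100a3, S100a4, S100a5 and S100a6, and the second holds S100a11 and S100a10 within 44.2 kb, 2896 kb away. All but S100a1 are on the plus strand. In GRCm38, S100a1 runs from 90511034 to 90514392, S100a13 from 90514435 to 90524581, S100a16 from 90537254 to 90543151 and S100a3 from 90560578 to 90602702. S100a4 runs from 90603771 to 90606045, S100a5 from 90608523 to 90611780 and S100a6 from 90612882 to 90624181. S100a11 runs from 93520488 to 93526287 and S100a10 from 93555080 to 93564643. Levels did not follow a single gradient along the first block. S100a1 and S100a13 lie next to the broadly used genes Chtop, Snapin and Ilf2, at 588, 266 and 436 per kb of span, and had the highest levels of the block per kb of gene span, though not above the 96.8 of S100a6 on its coding span. From S100a16 to S100a5 the members stayed at or below 3.39 per kb of gene span, or 7.92 with S100a3 on its coding span. Both lengths of S100a3 hold S100a2, and the S100a3 level is higher if the reads were counted on a shorter span. S100a6, at the far end, was at 13.1 per kb of gene span before the S100a7a to S100a9 genes, which were between 0.736 and 7.11.

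**Figure D3:**
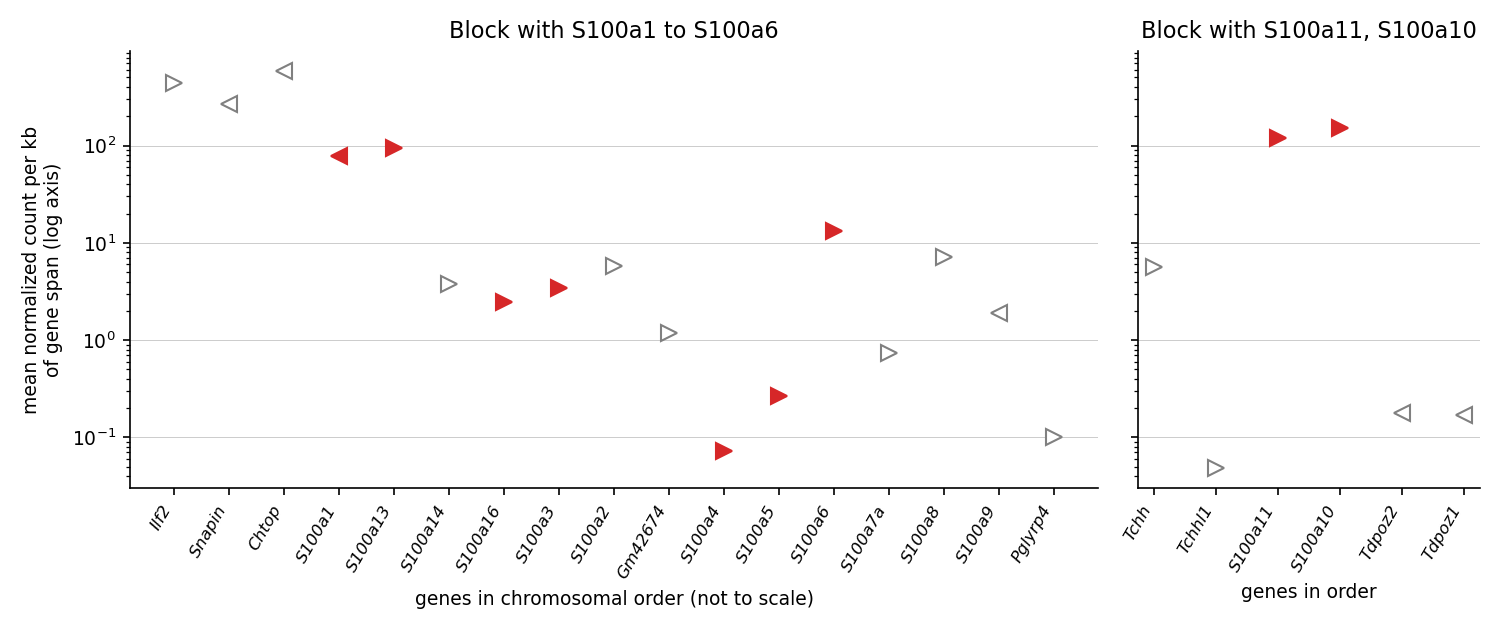
Mean normalized count per kb of gene span (vertical log axis) for the genes of the table in chromosomal order around both blocks, with red symbols for the 9 S100 genes, open symbols for their neighbours and arrowheads for the strand. S100a1 and S100a13 (77.3 and 94.8 per kb) stand beside Chtop (588 per kb), and S100a11 and S100a10 (119 and 151 per kb) stand among genes at or below 5.65 per kb.

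S100a11 and S100a10 stood apart from what surrounds them. Tchh (trichohyalin) and Tchhl1 before S100a11 had 5.65 and 0.0481 per kb of span, and Tdpoz2 and Tdpoz1 after S100a10 had 0.179 and 0.168. Between S100a6 and S100a11 the table lists 63 genes, of which 26 were at 0 and 4 had a mean of at least 10. The median of these 63 genes was 0.0481 and the highest mean was 115.6 for Flg (filaggrin). Of 18 other genes of the epidermal differentiation region found in the table, 2 had a mean of at least 10, Flg and Tchh, and their median was 0.137.

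Same-strand overlap limited what could be read for S100a4. Gm42674, annotated as protein-coding, starts inside S100a3 and ends inside S100a4, so that 160 of the 2275 bases of the S100a4 span are covered by no other gene of the table on that strand. The mean of 0.167 matched 1 combination of whole reads, 3 reads that fell in 2 of the 18 libraries. Per kb of these 160 bases S100a4 had 1.04, above the 0.269 of S100a5, whose span of 3258 bp has no overlap. Gm42674 itself had a mean of 4.72, which on its 1068 unshared bases is 4.42 per kb. With reads in shared bases left out, the table gives no level for the remainder of S100a4. The S100a5 mean equals between 7.60 and 40.6 reads in all, depending on the libraries they came from, and S100a5 was low without any overlap.

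**Figure D4:**
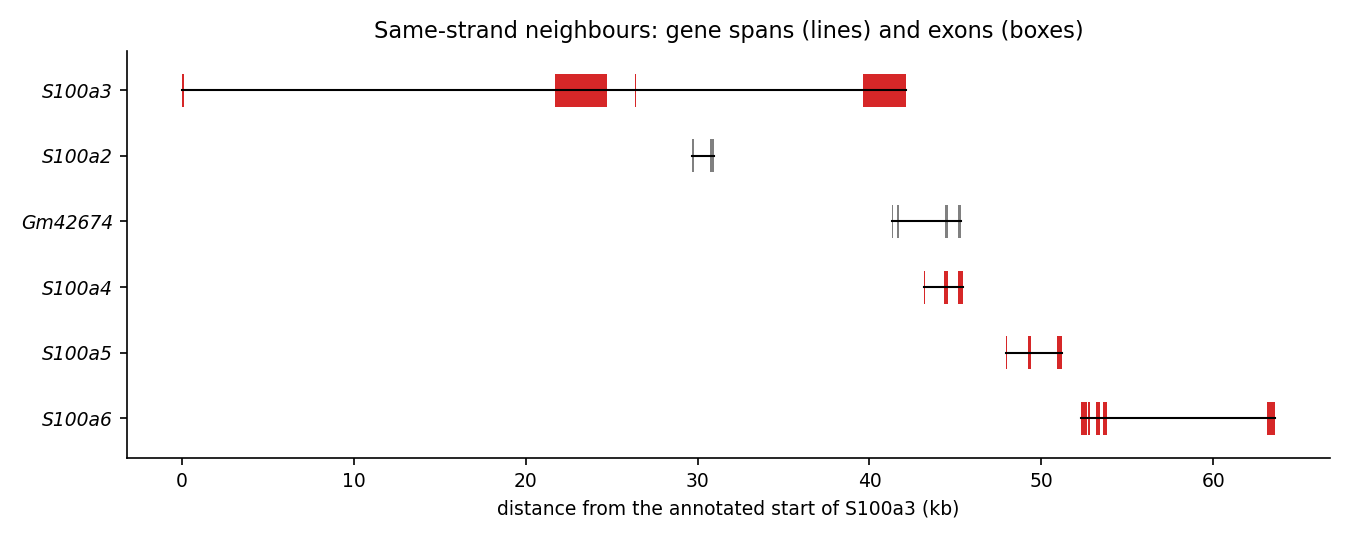
Spans (lines) and exons (boxes) of S100a3, S100a2, Gm42674, S100a4, S100a5 and S100a6, all on the plus strand, against the distance from the annotated start of S100a3 in kb. Gm42674 bridges the end of S100a3 and nearly all of S100a4 and leaves 160 bases of S100a4 unshared, while S100a5 and S100a6 have no overlap.

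S100a3 overlaps 2 genes of its strand. S100a2 lies in an intron of the long S100a3 transcripts and shares no exon base with it, and Gm42674 shares 144 of the 5660 merged exon bases of S100a3. S100a2 had a mean of 7.24 and was, with Ifi211, 1 of 2 such nested genes on the same strand with any reads. Whether vM25 draws S100a3 shorter than vM21 was not tested. If the reads were counted on a shorter S100a3, its level per kb is higher than the 3.39 given above. S100a2 also lies inside the 18044 bp spanned by the coding transcripts, so the 7.92 per kb on that length has the same limit. The other 7 genes share no span with a gene of the table on their strand.

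Near-identical copies of exons of protein-coding transcripts were found for S100a11 alone. Such exons of at least 50 bases were searched against GRCm38 with blastn. Only S100a11 had matches at 90% identity or more outside its own span, 12 on 5 chromosomes. Introns and other exons were not searched, so copies of these bases are not known for any member. An exon of 149 bases matched a processed pseudogene inside Uqcrh on chromosome 4, from 116067260 to 116067408, at 100% identity. Since only unique alignments were kept, read pairs that fitted a copy as well as S100a11 were not counted for it. How many such pairs there were was not tested. Exons make up 511 of the 5800 bp span of S100a11.

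The bases upstream of the start sites are shown for 4 members that span the range of levels, from S100a11 over S100a6 to S100a5 and S100a4. The sequences are from the RefSeq promoter table (GRCm38.p6), plus strand, written 5′ to 3′ and ended before the first annotated exon base. Capitals mark matches on either strand to 4 motifs, none of which overlap here. A GC box was searched as GGGCGG and an AP-1 site as TGACTCA. The letters searched for a CCAAT box were those of its name, and a TATA box was searched as TATAAA.
S100a11, chr3:93520246-93520487: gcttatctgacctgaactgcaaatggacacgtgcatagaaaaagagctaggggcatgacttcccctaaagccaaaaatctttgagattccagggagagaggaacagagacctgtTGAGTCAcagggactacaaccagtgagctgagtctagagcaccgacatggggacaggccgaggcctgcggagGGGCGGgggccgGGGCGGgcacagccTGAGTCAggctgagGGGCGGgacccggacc
S100a6, chr3:90612644-90612881: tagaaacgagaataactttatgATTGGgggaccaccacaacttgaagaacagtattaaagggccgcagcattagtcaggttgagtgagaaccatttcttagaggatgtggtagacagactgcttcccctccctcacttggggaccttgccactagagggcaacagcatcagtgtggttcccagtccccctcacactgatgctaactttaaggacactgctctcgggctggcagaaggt
S100a5, chr3:90608272-90608428: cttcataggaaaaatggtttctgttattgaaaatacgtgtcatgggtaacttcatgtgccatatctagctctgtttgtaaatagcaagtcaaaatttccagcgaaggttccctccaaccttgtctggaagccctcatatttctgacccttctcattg
S100a4, chr3:90603520-90603769: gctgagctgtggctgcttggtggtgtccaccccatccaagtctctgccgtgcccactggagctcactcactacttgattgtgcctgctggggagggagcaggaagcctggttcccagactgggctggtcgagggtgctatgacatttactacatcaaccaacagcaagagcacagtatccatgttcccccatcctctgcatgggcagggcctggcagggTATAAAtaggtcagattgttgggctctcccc

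The table held windows for 8 of the 9 members, and S100a10 had none. S100a11 holds 3 GC boxes and 2 AP-1 sites in these bases. The S100a6 stretch holds a CCAAT box near its distal end and the S100a4 stretch a TATA box close to the start. The S100a5 stretch holds none of the 4 motifs as printed, but its full window of 250 bases has a CCAAT box in the part left out. Among all 12 windows of the 8 members, some of which have several, 3 held a GC box, 1 an AP-1 site, 3 a CCAAT box and 2 a TATA box. The GC boxes outside S100a11 were in windows of S100a16 and S100a3, and a window of S100a3 held both a TATA and a CCAAT box. The windows of S100a13 and of S100a1 held none of the 4 motifs. Of their 250 bases, 234 and 135 are annotated exon bases, against 8 for S100a11. S100a13 was above S100a11 by mean, but not per kb of gene span. Over the 32851 windows of 250 upstream bases in the table, 32.7% held a GC box, 4.46% an AP-1 site, 33.8% a CCAAT box and 12.4% a TATA box. S100a11 had 11 CpG dinucleotides in its 250 bases, against a median of 6 over all windows, and S100a6, S100a5 and S100a4 had 3, 3 and 2. These matches describe the letters only.

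PROMPTs are short-lived upstream antisense transcripts that arise at active promoters, and the authors counted them in windows within 1 kb of start sites. Gene and PROMPT means were scaled in separate tables, so their ratio is a description. The PROMPT of S100a1 was highest among the members at 40.8, at percentile 95.4 of 23257 PROMPTs with a mean above 0. S100a11 followed with 3.16 and S100a10 with 1.06. S100a6, S100a13, S100a3, S100a5 and S100a4 had PROMPT means of 0.959, 0.843, 0.106, 0.0687 and 0.0266, and the PROMPT of S100a16 was listed at 0. The median PROMPT had 0.815, so S100a1 was the member whose PROMPT stood far above it. The means of S100a3, S100a5 and S100a4 matched 2, 2 and 1 whole reads, each from 1 library. As a share of the gene, the PROMPT was 15.7% for S100a1 and at most 0.647% for S100a3, S100a6, S100a10, S100a11, S100a13 and S100a16, while the median over 16608 genes was 0.167%. The shares of S100a4 and S100a5, 15.98% and 7.84%, rest on 1 and 2 PROMPT reads.

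**Figure D5:**
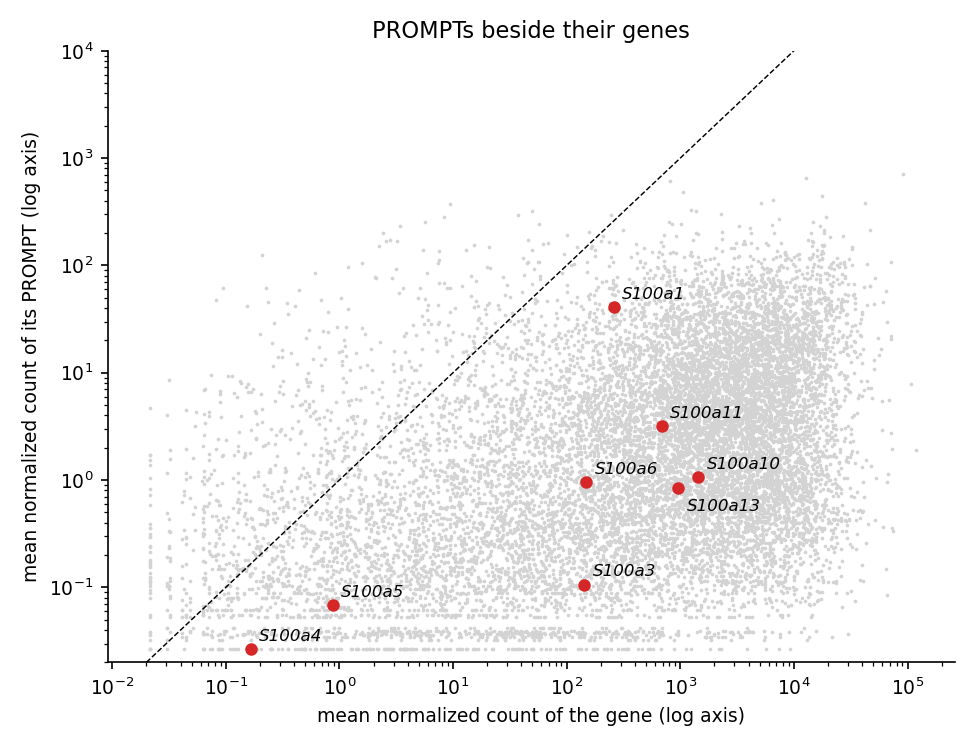
Mean normalized count of the PROMPT (vertical log axis) against that of its gene (horizontal log axis), in grey for all genes with both above 0 and in red for 8 S100 genes, with a dashed line where both are equal. S100a1 has the highest PROMPT of the members at 40.8, while S100a13, its divergent neighbour, has 0.843.

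S100a1 and S100a13 are transcribed away from each other from starts 43 bp apart. A window upstream of and antisense to either start would thus lie over the other gene. By the authors' definition, the S100a1 window is on the strand of S100a13 and the S100a13 window on the strand of S100a1. The positions of the counted windows were not checked. Their means were 40.8 for S100a1 and 0.843 for S100a13. Among 273 PROMPTs of genes whose starts are at most 100 bp from a divergent gene, 33 had a mean of at least 10 (12.1%) and 150 were below 1 (54.9%). Across these PROMPTs, Spearman's rho was 0.03 with the mean of the divergent gene and 0.13 with the mean of the own gene, a description over 273 PROMPTs that share libraries. How much of the S100a1 PROMPT is S100a13 RNA was not tested.

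The rest of the family was low. The table holds 10 further symbols that start with S100, of which S100pbp, on chromosome 4, encodes an S100P-binding protein that is no S100 protein and had a mean of 5870. The other 9 had means between 0.204 and 8.03. S100a7l2, S100a8, S100a14, S100a2, S100a9 and S100a7a of chromosome 3 had 8.03, 7.53, 7.43, 7.24, 5.91 and 3.42. By mean, the members S100a5 and S100a4, at 0.876 and 0.167, were below all of these. S100a4 has only 160 bases of unshared span, however. Per kb of unshared span it had 1.04, above the 0.736 of S100a7a, while S100a5 had 0.269. S100a8 and S100a9 encode calprotectin of neutrophils. S100b, known from glia, had 1.05, and S100g and S100z had 0.208 and 0.204. The members thus held 98.9% of the summed means of the 15 S100 genes of chromosome 3. The PROMPTs of S100b and S100a2, at 12.8 and 15.8, were above the means of their genes, as were those of 4.48% of genes.

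Known binding partners of S100 proteins were mostly at or above the gene median. Of 17 partners on the list, 12 were so by mean and 11 per kb of span. The lowest mean was 41.9 for Ager, the receptor for advanced glycation end products. Anxa2, which forms a complex with the S100a10 protein, had a mean of 1192 and 31.2 per kb of span, against 151 per kb for S100a10. Anxa1, partner of S100a11, had 259.5 and 14.8 per kb of span, against 119 for S100a11. Cacybp, named for its binding to the S100a6 protein, had 432 per kb of span, and Fgf1, whose protein is released with S100a13, had 1.72. Genes of S100 proteins and of their partners thus differed in either direction. Among 17 genes of other calcium-binding proteins on the list, which have EF-hands except for calreticulin (Calr), 13 were at or above the gene median. Per kb of span, 12 of the 17 were. Calr, at 6910, was among the 13. The highest was Calm2, a calmodulin gene, at 7849 and 580 per kb of span, above all 9 S100 genes on both scales. Only 3 of the 9 S100 genes reached the gene median of the mean normalized count, and 4 of 9 did per kb of gene span.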

How the data were processed

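TT-seq libraries were analysed from the tables that the authors deposited. Per the methods, reads trimmed by Trim Galore were mapped by the authors to mm10 using STAR, with unique alignments kept, then assigned by strand to Gencode vM25 features with featureCounts and divided by DESeq2 size factors. The signal used here is the mean normalized count over libraries that the authors deposited for genes and for PROMPTs. The remaining columns hold the authors' own comparison of SPT16-depleted with control libraries (log2 fold change, its standard error, p-value and adjusted p-value) and were not used. Tables of ncRNAs and eRNAs name no gene or position and were not used. Library-level counts were not analysed here, so groups were not compared, nothing was tested and no interval is given. Reads per library are known only through the value of 1 read.

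The members and gene lists were chosen with earlier results of these data known. Named genes are the 9 members, other S100 symbols, genes next to or overlapping a member, and genes of the fixed lists. Of 21859 gene IDs, 21817 were found in Gencode vM21, which gave spans and exons. Percentiles are among genes with a mean above 0. Whole reads were matched within 2e-08 per read. Copies were searched with blastn 2.17.0 (megablast, at least 90% identity). Interval, percentile and motif functions were tested on simulated data. Scripts ran under Python 3.11.15 (pandas 2.3.3, numpy 2.4.6, matplotlib 3.10.9). Alternatives were other lengths, filters on low means and sets of genes.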

Additional observations from a re-analysis of the deposited data

How the results depend on the processing

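No paired analysis was possible because the deposited columns carry no replicates, and for the same reason no replicate could be left out. The median level of the 9 genes was 109 per kb of merged exons, the scale planned first. It was 13.1 per kb of gene span and of unshared gene span, 189 per kb of the longest transcript, 183 per kb of the exons of protein-coding transcripts and 77.3 per kb of their span. Relative to the order per kb of merged exons, 6 of 9 genes kept their place per kb of gene span, of the longest transcript and of coding exons, and 4 of 9 kept it per kb of unshared span and of coding span. All lengths other than merged exons, gene span and longest transcript were chosen after seeing the data. The median percentile of 40.7 was 37.6 and 28.6 over the 7 genes that passed a mean of at least 1 or 10, 49.0 per kb of merged exons and 45.7 per kb of gene span. The share held by S100a10, S100a13 and S100a11, 84.5% over the 9 genes, was 83.6% over every S100 gene. The median PROMPT share of 0.459% was the same over the 3 genes whose PROMPT had a mean of at least 1, as S100a11 is the middle gene in both sets. With 1 pooled value per gene, neighbouring levels cannot be ordered, and what each member did in SPT16-depleted or control cells cannot be told apart.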
